A study of Homo sapiens with 30 samples.

Results

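Integrin and laminin subunit genes encode the chains of the integrins, the cell-surface receptors that hold cells to their surroundings, and of the laminins, large proteins of the basement membrane that many integrins bind. The genes were chosen by symbol: ITGA followed by a number, by 2B or by one of the letters D, E, L, M, V and X, and ITGB, LAMA, LAMB or LAMC followed by a number. This gave 38 of the 61471 genes in each of the deposited tables, 18 of them integrin alpha genes, 8 integrin beta genes and 12 laminin genes (5 alpha, 4 beta and 3 gamma).

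RNA was sequenced from 2 established lines of human glioblastoma, U87-MG and U251-MG (here U87 and U251), with or without the cytokine interferon gamma (IFN-γ). In each line there were 5 groups: cells without IFN-γ (Untreated), cells kept in IFN-γ for 3 days (D3), 14 days (D14) or 28 days (D28), and cells from which IFN-γ was removed after day 14 and which were collected at day 28 (D28WO). Each group had 3 libraries from independent cultures, except that 2 could be used for D3 and 2 for D14 of U87, because a pair of U87 columns has 1 name between them and could be matched to no sample, which left 13 libraries of U87 and 15 of U251. The values are TPM, a level corrected for gene length and scaled to the same total in every library, so nothing of the depth remains and no limit of detection can be given for a gene listed at 0. In the labels the protocol has IFN-γ at 1 µg/mL, and Untreated cells were collected on day 3. A lower dose is stated in the paper, whose Untreated cells come from the start of the course. According to the paper the lines were not authenticated by STR profiling, and both are on the list of cell lines often misidentified, so the results hold for these cultures and not for glioblastoma as such.

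Each integrin is a pair of an alpha and a beta chain, and the pairing sets what it binds: laminin, collagen, proteins with the RGD motif such as fibronectin and vitronectin, or molecules on other cells. Each laminin is a trimer of an alpha, a beta and a gamma chain, and the trimers assemble with type IV collagen, nidogen and perlecan into the basement membrane. Glioma cells are known to migrate along the basement membranes of blood vessels, and integrins are among the receptors they use.

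Genes known to be induced by IFN-γ were read first, as a check of the labels. GBP1, a guanylate-binding protein, was at 49.9, 44.4 and 45.0 TPM (Untreated), 413, 487 and 434 (D3), 155, 156 and 141 (D14), 456, 473 and 501 (D28) and 461, 471 and 460.1 (D28WO) in U251. In U251 every treated library was above every Untreated one, with D14 between Untreated and the others, and D28WO libraries were as high as D28. GBP1 in U87 was at 36.9, 39.6 and 31.3 TPM (Untreated), 209 and 240.2 (D3), 31.7 and 36.6 (D14), 253, 256 and 244 (D28) and 213, 219 and 232 (D28WO). The U87 libraries labelled D14 lay among the Untreated ones, while those of D3, D28 and D28WO were far above. IRF1, a transcription factor of the interferon response, was at 134 and 109.8 TPM in the U87 libraries labelled D14 and at 136, 130.1 and 134 TPM in the Untreated ones. Neither gene was called in limma for these libraries (adjusted p 0.748 and 0.488, and 0 at an unadjusted p under 0.05), whereas both rose in every other treated group of both lines. The paper, too, describes a weaker interferon response of U87 at this time point, although its gene set test has the response active at each one. The U87 group is therefore written as the libraries labelled D14, and U87 results are given with and without it. Where treated groups or libraries of U87 are named together, they include these libraries by their label alone. Within groups the correlation of log2 values between libraries was 0.9588 to 0.9736, and no library was identical to another.

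Changes were tested with limma on log2(TPM + 1), on all 5 groups of a line together, for the genes that averaged 0.5 TPM or more there (22918 for U87, 23667 for U251). A gene was called higher or lower when its p, adjusted by Benjamini-Hochberg over every gene tested, was under 0.05, and a stricter rule also asked for a log2 fold change over 1 in size. The median gene was itself above Untreated, by 0.20, 0.15, 0.19 and 0.25 on the log2 scale at D3, D14, D28 and D28WO in U87 and by 0.13, 0.10, 0.16 and 0.02 in U251, so each change is also given relative to that median, and changes at D3, D14, D28 and D28WO are against Untreated throughout. Comparisons against Untreated share the same 3 Untreated libraries. No group that was never given IFN-γ was collected at day 14 or 28. The effect of IFN-γ and that of time in culture therefore cannot be told apart at D14, D28 and D28WO. If the Untreated cells come from the start of the course, as stated in the paper, this holds at D3 too. D28WO against D28 compares cells without and with IFN-γ from day 14 on. The tables of the lines were normalized separately, so the lines were never tested against each other: a call in 1 line and none in the other is not shown to be a difference. Where the call of a member described below was lost under an alternative, or without at least 1 library of a group, this is said. The range or the highest of the limma adjusted p over all alternatives is given with it. The alternatives were fitted on all genes tested, but lost calls are given for members alone. In bulk RNA a lower level of a transcript in each cell and fewer cells that carry it cannot be told apart.

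Among integrin alpha genes, ITGA3, a laminin receptor chain, had the highest mean in the Untreated cells of both lines. In Untreated U87 cells ITGA3 was at 385 ± 44.7 TPM (mean ± SD, n = 3), followed by the fibronectin receptor chain ITGA5 at 319.7 ± 33.8 TPM and the laminin receptor chain ITGA7 at 125 ± 40.0 TPM. In Untreated U251 cells ITGA3 was at 413 ± 7.39 TPM (mean ± SD, n = 3), followed by ITGA7 at 209 ± 34.2 TPM and the vitronectin receptor chain ITGAV at 140.4 ± 2.15 TPM. The beta chains were led in both lines by ITGB1, the partner of most alpha chains, and then by ITGB5, a partner of ITGAV. Means (± SD, n = 3) were 469 ± 46.0 TPM for ITGB1, 294 ± 15.9 TPM for ITGB5 and 82.7 ± 3.69 TPM for ITGB3 in U87. The U251 means (± SD, n = 3) were 345 ± 12.6 TPM for ITGB1, 299 ± 11.4 TPM for ITGB5 and 207 ± 20.7 TPM for ITGB4, the beta chain of hemidesmosomes. Laminin levels differed in their order, which was not tested between lines. U87 had the highest means (± SD, n = 3) for LAMB1 at 206 ± 9.73 TPM, LAMC1 at 189 ± 27.2 TPM and LAMB2 at 142 ± 24.6 TPM, with LAMB1 and LAMC1 within 1 SD of each other. In U251 the highest means (± SD, n = 3) were those of LAMB2 at 355 ± 26.1 TPM, LAMA4 at 295 ± 3.66 TPM and LAMB1 at 212 ± 4.75 TPM.

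Some members were close to absent. In U87, 6 members had a mean under 0.5 TPM and were not tested: ITGA8 (0 to 0.155 TPM), ITGA9 (0 to 0.122 TPM), ITGAM (0.0618 to 1.74 TPM), ITGB2 (0 to 1.81 TPM), LAMB4 (0 to 0.743 TPM) and LAMC3 (0.0652 to 0.452 TPM). In U251 the 2 members not tested were ITGA8 (0 to 0.259 TPM) and ITGAD (0 to 0.882 TPM, listed at 0 in 12 of 15 libraries). ITGB2 of U87, a chain of leukocyte integrins, was listed at 0 in 7 of 13 libraries and in all 3 Untreated ones. ITGAL, a chain that ITGB2 pairs with on leukocytes, ranged from 1.11 to 11.8 TPM in U87 and from 0.301 to 5.64 TPM in U251, and it was called in no comparison. The map of levels has the abundant members as bright bands and most leukocyte chains as dark ones.

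**Figure D1:**
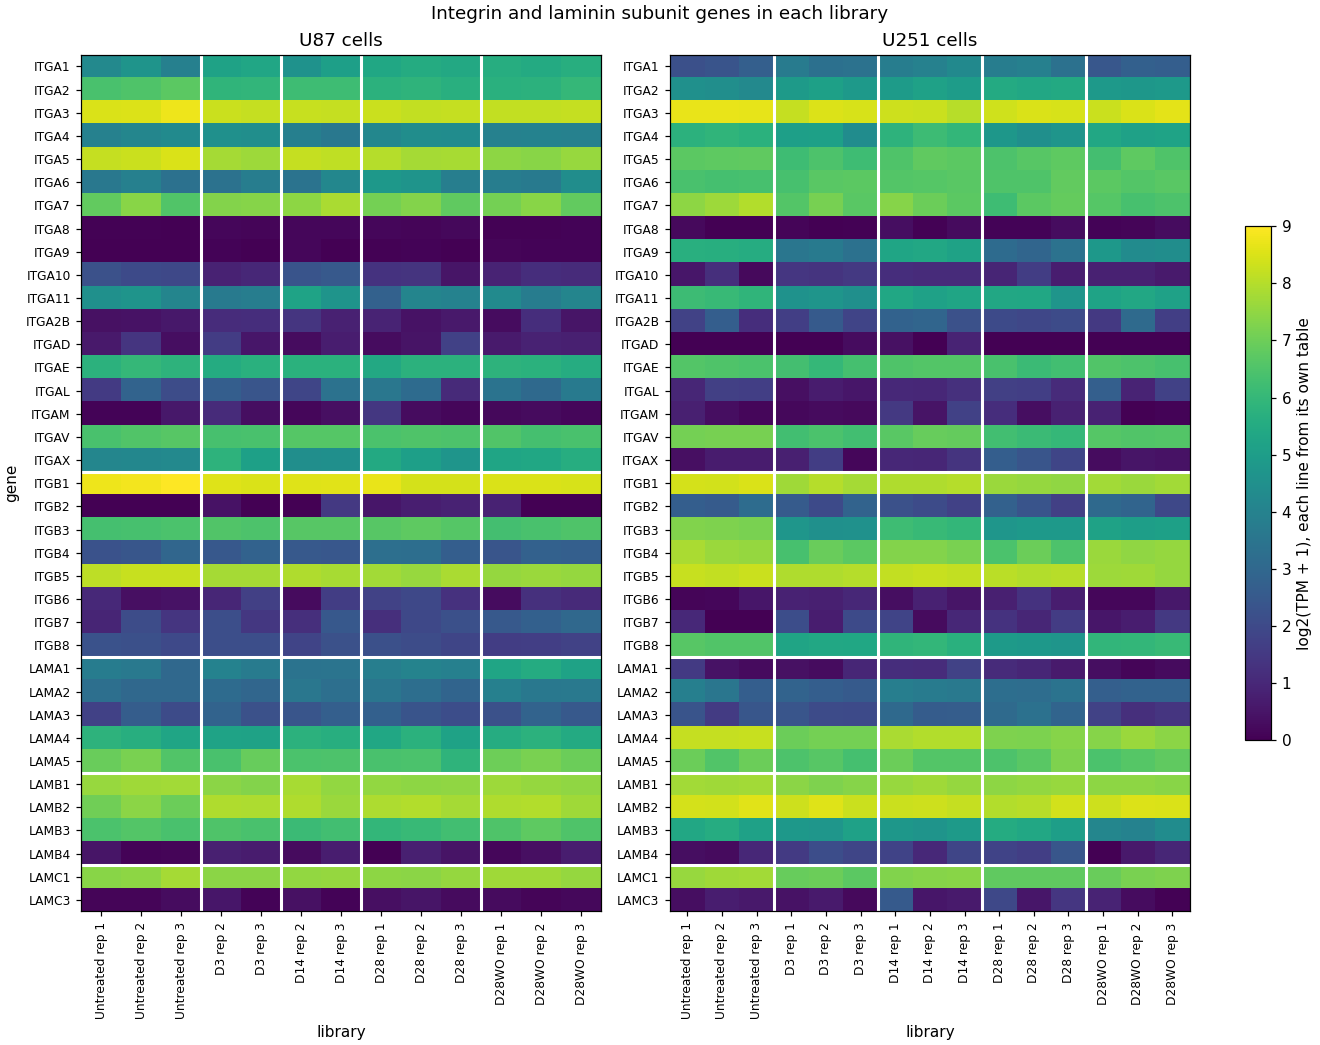
Levels of integrin and laminin subunit genes (rows) in each library (columns, by group) of U87 and U251, as log2(TPM + 1), brighter (yellow) for higher levels. In U251, D3 and D28 are darker than Untreated for ITGA9, ITGB3 and ITGB8. The tables of the lines were normalized separately.

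In U87, a larger share of members fell than of all genes tested at D3 and D28. Among the members called there, LAMB2, ITGA1 and ITGAX rose most. At D3, 3 of 32 members tested were called higher (9.38%, against 12.4% of all genes), 7 lower (21.9% against 4.28%) and 2 passed the stricter rule (6.25% against 6.23%). The D3 count of 10 called was 6 without either D3 library and 2 with only the compared groups fitted, a fit that left 7 of 12 at D28. For the libraries labelled D14 the counts were 1 higher (3.12% against 4.14%), 2 lower (6.25% against 1.02%) and 0 by the stricter rule in limma (all genes 2.10%), with 10 members at an unadjusted p under 0.05, and the 3 called were 0 without either of the libraries. By D28, 4 members were higher (12.5% against 17.2%), 8 lower (25% against 6.55%) and 1 passed the stricter rule (3.12% against 7.38%). The share that fell was above that of all genes in each of these. At D28WO, 6 members were higher (18.8% against 28.6%), 6 lower (18.8% against 13.4%) and 4 passed the stricter rule (12.5% against 14.9%). D28WO against D28 gave 3 members higher (9.38% against 9.90%), 2 lower (6.25% against 8.44%) and 1 by the stricter rule (3.12% against 5.53%), all near the shares of all genes, and the 5 called were 3 without D28WO replicate 2. Medians over the members were 0.01, 0.11, 0.08 and 0.09 against Untreated and 0.03 for D28WO against D28, beside 0.20, 0.15, 0.19, 0.25 and 0.04 over all genes. With the libraries labelled D14 left out of the fit, an alternative chosen after seeing the data, the U87 counts of called members were again 10, 12, 12 and 5 at D3, D28, D28WO and D28WO against D28.

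In U251, members that fell were the larger group at every time point, and part of them were higher at D28WO than at D28. By the largest fall of each member at any time point, ITGB3, ITGA9, ITGB8 and ITGA11 led, an order that did not hold at each one. At D3, 18 of 36 members tested were called lower (50%, against 16.0% of all genes), 6 higher (16.7% against 24.9%) and 9 passed the stricter rule (25% against 14.3%). At D14, 10 members were lower (27.8% against 7.31%), 3 higher (8.33% against 13.8%) and 3 passed the stricter rule (8.33% against 5.76%). By D28, 16 were lower (44.4% against 14.7%), 7 higher (19.4% against 25.9%) and 13 passed the stricter rule (36.1% against 15.2%). The share called lower was above that of all genes each time, and the share called higher below it. At D28WO, 13 were lower (36.1% against 13.4%), 2 higher (5.56% against 14.3%) and 4 passed the stricter rule (11.1% against 7.45%). For D28WO against D28, 9 members were higher (25% against 10.3%), 8 lower (22.2% against 18.8%) and 8 passed the stricter rule (22.2% against 9.26%). Medians over the members were -0.31, -0.05, -0.09 and -0.21 against Untreated and -0.10 for D28WO against D28, beside 0.13, 0.10, 0.16, 0.02 and -0.12 over all genes. In the plot of changes, most filled points of U251 lie left of the dotted median, and those of U87 on both sides.

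**Figure D2:**
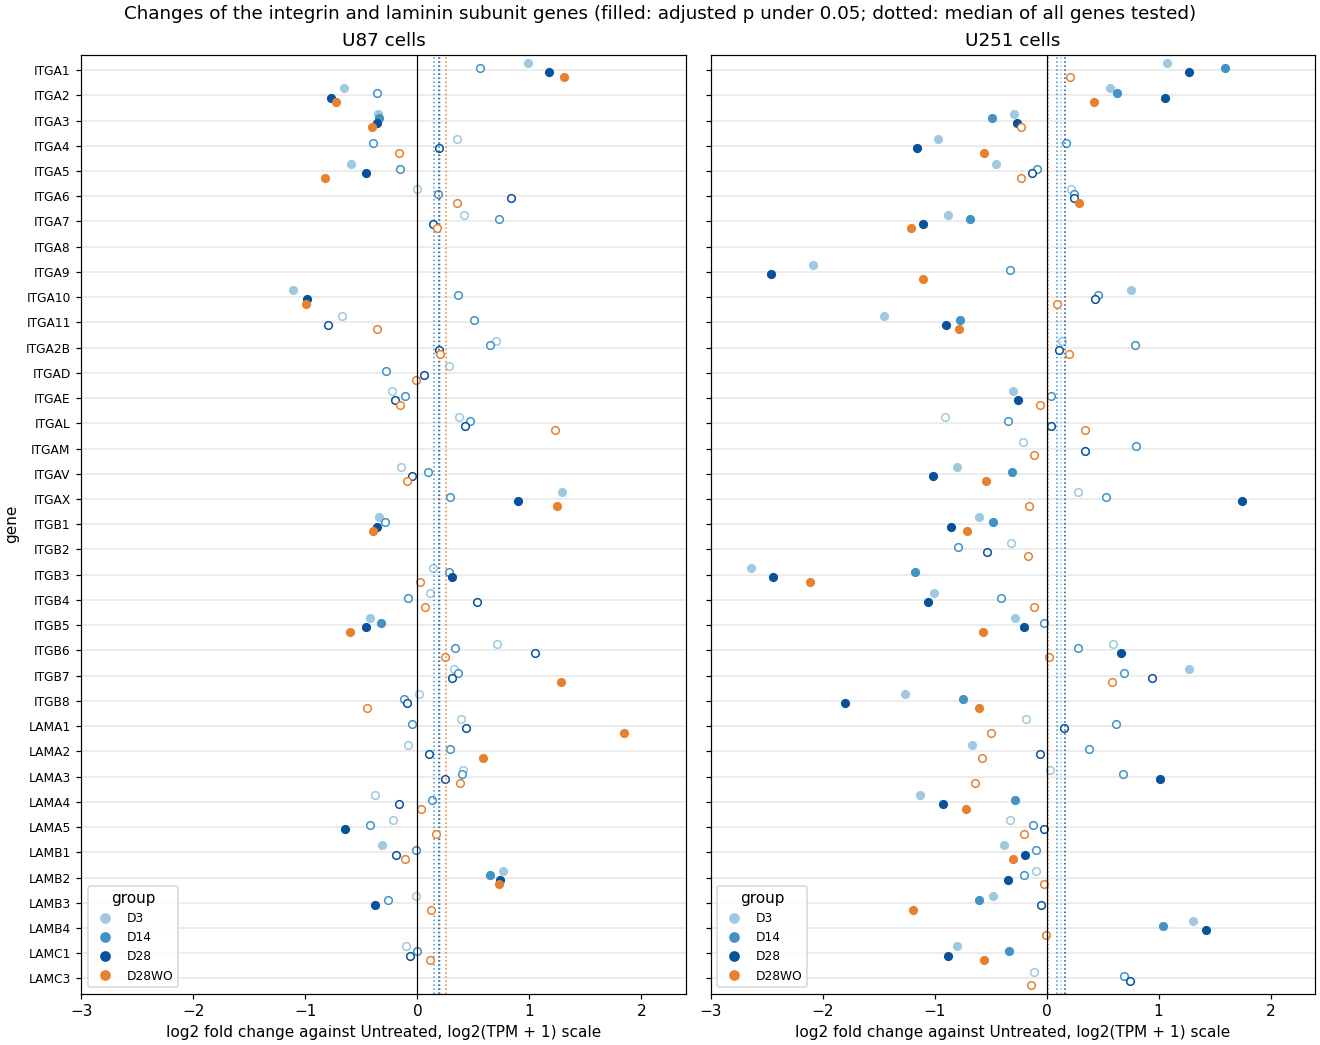
Log2 fold changes against Untreated of members tested, by group, in U87 and U251, with filled points for members called at an adjusted p under 0.05 and a dotted line at the median of all genes tested for each group. ITGB3 and ITGA9 of U251 reach furthest to the left, and LAMA1 at D28WO of U87 and ITGAX at D28 of U251 furthest to the right.

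The balance of rises and falls depends on how the libraries are scaled. Of the genes called, 74.4%, 80.2%, 72.5% and 68.2% were higher at D3, D14, D28 and D28WO of U87 as reported, but 52.7%, 55.3%, 49.6% and 45.5% after quantile normalization of the libraries, and 48.6%, 57.6%, 46.7% and 49.3% after division by median-ratio size factors. U251 had 60.9%, 65.4%, 63.9% and 51.5% as reported, 49.6%, 50.2%, 47.7% and 48.4% after quantile normalization and 50.7%, 49.7%, 51.9% and 47.5% with size factors. In U251 more members fell than rose against Untreated under each scaling. Members called higher and lower from D3 to D28WO of U251 were 2 and 18, 2 and 9, 4 and 13, and 1 and 14 after quantile normalization, and 5 and 18, 2 and 12, 6 and 16, and 1 and 13 with size factors. In U87 they were 3 and 4, 1 and 0, 3 and 8, and 5 and 7 after quantile normalization, and 3 and 9, 0 and 1, 3 and 11, and 5 and 10 with size factors. So the libraries labelled D14 of U87 had no stable balance, and at D28WO the equal counts as reported (6 and 6) became more falls than rises. For D28WO against D28 the counts were 4 and 2, then 3 and 2, in U87 and 7 and 8, then 11 and 8, in U251, where 35.5% of all genes called were higher as reported, 51.8% after quantile normalization and 48.0% with size factors. No member's call was reversed under any alternative.

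**Figure D3:**
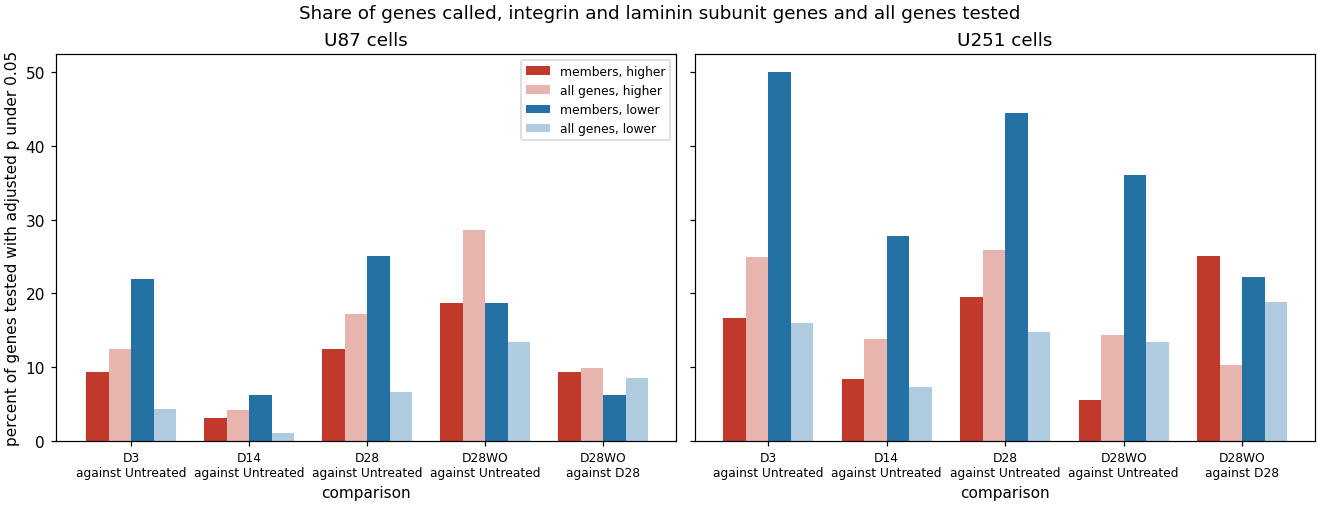
Percent of genes tested that were called higher (red) or lower (blue) in each comparison, for the integrin and laminin subunit genes (dark) and for all genes (pale), in U87 and U251. The dark blue bars stand above the pale blue ones in every comparison against Untreated, from 6.25% against 1.02% for D14 of U87 to 50% against 16.0% for D3 of U251, a balance that for D14 of U87 is 0 called lower after quantile normalization.

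Of the laminin-binding alpha chains, ITGA3 fell in both lines and ITGA7 in U251. ITGA3, which pairs with ITGB1 to bind laminins with the LAMA3 or LAMA5 chain, was lower at D3, D28 and D28WO of U87. It was also lower in the libraries labelled D14. ITGA3 in U87 was at 355, 364 and 436 TPM (Untreated), 308 and 293 (D3), 305 and 297 (D14), 311, 289.5 and 296 (D28) and 286, 285 and 296 (D28WO). All libraries of D3, D28 and D28WO, and those labelled D14, were below all Untreated ones. For ITGA3 in U87, limma gave log2 fold changes of -0.35, -0.35, -0.36 and -0.41 from D3 to D28WO, or -0.55, -0.50, -0.55 and -0.66 relative to the median (SE 0.08, 0.08, 0.07 and 0.07, adjusted p 0.0143, 0.0361, 0.00538 and 0.000977). All 4 calls were lost after quantile normalization, those at D3, D14 and D28 with 2 groups fitted, that at D3 without any D3 library, and that at D14 without 1 library of Untreated, D3, D14 or D28WO, with no filter, with size factors and with replicate blocks (limma adjusted p up to 0.177, 0.22, 0.0697 and 0.0956).

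ITGA3 in U251 was at 416, 419 and 405 TPM (Untreated), 297, 371 and 349.5 (D3), 314, 313 and 262 (D14), 327, 356 and 350.2 (D28) and 310.2, 359 and 395 (D28WO). Here too every treated library lay below the 3 Untreated ones, but by a narrow gap at D28WO, where the gene did not pass. For ITGA3 in U251, limma gave log2 fold changes of -0.29 at D3, -0.48 at D14 and -0.26 at D28, or -0.42, -0.58 and -0.43 relative to the median (SE 0.10 each, adjusted p 0.0282, 0.00302 and 0.0449). The D3 and D28 calls were lost without any 1 Untreated library, after quantile normalization and with no filter, that at D3 also without D3 replicate 1 and with 2 groups fitted, and that at D28 without 1 library of D3, D28 or D28WO (limma adjusted p up to 0.226 and 0.718). ITGA7, the laminin receptor chain best known from muscle, fell in every treated group of U251. ITGA7 in U251 was at 178, 204 and 246 TPM (Untreated), 96.5, 142 and 103 (D3), 163, 125 and 105 (D14), 72.4, 106 and 116 (D28) and 96.7, 82.5 and 88.7 (D28WO). Every treated library was below the lowest Untreated one, and D28WO stayed with D28. For ITGA7 in U251, limma gave log2 fold changes of -0.88, -0.68, -1.10 and -1.21 from D3 to D28WO, or -1.01, -0.78, -1.27 and -1.23 relative to the median (SE 0.20 each, adjusted p 0.00259, 0.0247, 0.00051 and 0.000382). The ITGA7 call in U251 at D14 was lost without 1 library of Untreated or D14, with no filter and with 2 groups fitted (limma adjusted p 0.012 to 0.108).

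ITGA7 in U87 ranged from 92.3 to 231 TPM, with Untreated libraries that overlapped D3, D28 and D28WO, and no comparison passed. ITGA6, which binds laminins with either ITGB1 or ITGB4, ranged from 9.13 to 27.1 TPM in U87, where it was called in no comparison, and from 80.1 to 113 TPM in U251. In U251 it was called higher at D28WO, with a limma log2 fold change of 0.29 (adjusted p 0.0449), a gene chosen after its values were seen. That call was lost without 1 library of Untreated, D14 or D28WO, with no filter, after quantile normalization and with size factors (limma adjusted p 0.0125 to 0.123).

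The collagen-binding alpha chains ITGA1, ITGA2, ITGA10 and ITGA11 all pair with ITGB1, and they went different ways. ITGA1 and ITGA2 are neighbors, 30130 bases apart on the same strand of chromosome 5 with no coding gene between them. Promoters of 2 of the chains are shown because in U87 ITGA1 rose while ITGA10 fell: they run from 250 bases before to 50 bases after the gene start, from RefSeq on GRCh38.p14, at chr5:52787666-52787965 on the plus strand for ITGA1 and chr1:145910001-145910300 on the minus strand for ITGA10, each written 5′ to 3′ on the gene's strand. Capitals mark GAAANNGAA, the letters of the element known to bind interferon regulatory factors, found in ITGA10 with its first base 38 bases before the start, and neither it nor TTCNNNGAA, the letters of a site known from genes induced by IFN-γ, occurs on either strand in the window of ITGA1.
ITGA1: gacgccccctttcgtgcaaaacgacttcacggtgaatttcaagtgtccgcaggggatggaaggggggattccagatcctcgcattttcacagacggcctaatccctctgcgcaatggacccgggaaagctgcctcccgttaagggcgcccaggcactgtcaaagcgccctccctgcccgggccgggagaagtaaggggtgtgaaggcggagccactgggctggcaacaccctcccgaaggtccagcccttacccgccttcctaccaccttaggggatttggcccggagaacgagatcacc
ITGA10: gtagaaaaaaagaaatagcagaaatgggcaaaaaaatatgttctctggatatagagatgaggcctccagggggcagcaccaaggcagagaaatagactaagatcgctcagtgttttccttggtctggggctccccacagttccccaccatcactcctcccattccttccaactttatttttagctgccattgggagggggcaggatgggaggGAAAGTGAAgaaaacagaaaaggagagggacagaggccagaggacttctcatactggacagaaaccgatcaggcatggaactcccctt

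ITGA1, whose pair with ITGB1 binds the collagen of basement membranes, rose in both lines, and ITGA2, a receptor chain for fibrillar collagen next to it on chromosome 5, rose in U251 and fell in U87. ITGA1 in U87 was at 18.0, 24.0 and 14.2 TPM (Untreated), 35.8 and 39.1 (D3), 23.0 and 32.6 (D14), 40.1, 45.8 and 42.3 (D28) and 47.9, 44.7 and 48.4 (D28WO). D3, D28 and D28WO libraries all lay above the Untreated ones, and 1 of the 2 libraries labelled D14 lay among them. For ITGA1 in U87, limma gave log2 fold changes of 0.99 at D3, 1.18 at D28 and 1.31 at D28WO, or 0.79, 0.99 and 1.06 relative to the median (SE 0.19, 0.17 and 0.17, adjusted p 0.00521, 0.000622 and 9.61e-05). The ITGA1 call in U87 at D3 was lost with 2 groups fitted (limma adjusted p 0.00132 to 0.0916). In U251, ITGA1 was at 3.62, 4.05 and 5.53 TPM (Untreated), 12.4, 9.02 and 9.49 (D3), 12.99, 14.5 and 18.1 (D14), 13.03, 14.0 and 9.20 (D28) and 4.43, 5.78 and 5.42 (D28WO). All libraries of D3, D14 and D28 were above all Untreated ones, whereas D28WO overlapped Untreated and lay below every D28 library. For ITGA1 in U251, limma gave log2 fold changes of 1.07 at D3, 1.59 at D14 and 1.27 at D28, or 0.94, 1.49 and 1.11 relative to the median (SE 0.20 each, adjusted p 0.00076, 9.57e-05 and 0.000191). ITGA1 in U251 had a log2 fold change of -1.06 at D28WO against D28 (-0.94 relative to the median, SE 0.20, limma adjusted p 0.00142).

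PELO, a gene of ribosome rescue, lies inside ITGA1 on the same strand and shares 499 exon bases with it in GENCODE, so reads there may count for either. The pseudogene RPL17P21 shares 571 exon bases with ITGA1, also on the same strand. PELO in U251 had means of 38.6 TPM (SD 1.47) in Untreated cells, then 56.5 (4.06), 49.8 (5.61), 64.0 (2.07) and 47.6 (1.67) from D3 to D28WO (n = 3 each). It was called higher in every treated group, at D28WO too, where ITGA1 was not. The limma log2 fold changes were 0.53, 0.35, 0.71 and 0.29 from D3 to D28WO. For D28WO against D28, PELO was called lower (-0.42, limma adjusted p 0.00173), as ITGA1 was. The part of PELO in the ITGA1 result was not tested. In U87, PELO was called at D28WO alone, with 0.27 (limma adjusted p 0.0149). ITGA2 in U251 was at 21.7, 20.9 and 17.7 TPM (Untreated), 28.6, 34.0 and 28.2 (D3), 29.4, 34.9 and 30.8 (D14), 44.7, 40.9 and 43.0 (D28) and 28.3, 26.0 and 27.4 (D28WO). Each treated library lay above the 3 Untreated ones, D28 was the highest group, and D28WO lay below all of D28. For ITGA2 in U251, limma gave log2 fold changes of 0.57, 0.63, 1.06 and 0.42 from D3 to D28WO, or 0.44, 0.54, 0.89 and 0.41 relative to the median (SE 0.10 each, adjusted p 0.000549, 0.000661, 1.98e-06 and 0.00677). ITGA2 in U251 had a log2 fold change of -0.64 at D28WO against D28 (-0.52 relative to the median, SE 0.10, limma adjusted p 0.000409). ITGA2 in U87, chosen after its values were seen, went the other way. Its levels were 84.3, 90.9 and 104 TPM (Untreated), 58.1 and 59.1 (D3), 71.9 and 72.2 (D14), 53.6, 57.4 and 50.7 (D28) and 51.2, 54.6 and 62.0 (D28WO). All treated libraries were below all Untreated ones, with the libraries labelled D14 nearest to them. For ITGA2 in U87, limma gave log2 fold changes of -0.65 at D3, -0.77 at D28 and -0.72 at D28WO, or -0.85, -0.96 and -0.98 relative to the median (SE 0.11, 0.09 and 0.09, adjusted p 0.00202, 0.000201 and 0.000109).

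ITGA11, the collagen receptor chain of fibroblasts, was among the members that fell most in U251. ITGA11 in U251 was at 70.7, 66.5 and 57.9 TPM (Untreated), 23.2, 24.8 and 21.1 (D3), 40.0, 34.7 and 38.01 (D14), 40.7, 40.1 and 24.9 (D28) and 36.4, 41.1 and 34.8 (D28WO). Every treated library was below every Untreated one, D3 was the lowest group, and D28WO overlapped D28. For ITGA11 in U251, limma gave log2 fold changes of -1.45, -0.77, -0.89 and -0.78 from D3 to D28WO, or -1.58, -0.87, -1.06 and -0.79 relative to the median (SE 0.16 each, adjusted p 5.32e-06, 0.00307, 0.000406 and 0.0018). ITGA11 in U87 ranged from 5.97 to 35.9 TPM and was called in no comparison. ITGA10, a collagen receptor chain known from cartilage, fell in U87 from a low level. ITGA10 in U87 was at 3.67, 3.02 and 2.84 TPM (Untreated), 0.828 and 1.02 (D3), 4.08 and 4.65 (D14), 1.504, 1.58 and 0.436 (D28) and 0.847, 1.28 and 1.16 (D28WO). Libraries of D3, D28 and D28WO were all below the Untreated ones, and those labelled D14 above them. For ITGA10 in U87, limma gave log2 fold changes of -1.11 at D3, -0.98 at D28 and -0.99 at D28WO, or -1.31, -1.17 and -1.25 relative to the median (SE 0.30, 0.27 and 0.27, adjusted p 0.0272, 0.0216 and 0.0109). The ITGA10 call in U87 at D3 was lost without 1 library of Untreated or D3, with no filter, with 2 groups fitted and with replicate blocks (limma adjusted p 0.00246 to 0.148). The ITGA10 call in U87 at D28 was lost without Untreated replicate 1 or D28 replicate 3 and with 2 groups fitted (limma adjusted p 0.0018 to 0.0871).

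In U251, ITGA10, chosen after its values were seen, was called higher at D3 at levels near 1 TPM. Its levels there were 0.449, 1.34 and 0.183 TPM (Untreated) and 1.69, 1.55 and 1.81 (D3). All 3 D3 libraries lay above the Untreated ones, of which 1 was close to them. For ITGA10 in U251, limma gave a log2 fold change of 0.76 at D3, or 0.63 relative to the median (SE 0.29, adjusted p 0.0485). The ITGA10 call in U251 at D3 was lost without 1 library of any group, with no filter, with a filter at a mean of 1 TPM, after quantile normalization, with size factors and with 2 groups fitted (limma adjusted p 0.0125 to 0.311).

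Among RGD-binding alpha chains, ITGA5, the fibronectin receptor chain, fell in U87 and ITGAV, which pairs with several beta chains to bind vitronectin and latent TGF-beta, fell in U251. ITGA5 in U87 was at 294, 307 and 358 TPM (Untreated), 218 and 204 (D3), 293 and 279 (D14), 254, 217 and 225 (D28) and 178, 168 and 192 (D28WO). Every treated library was below the Untreated ones, with those labelled D14 nearest, and all D28WO libraries lay below all D28 libraries. For ITGA5 in U87, limma gave log2 fold changes of -0.59 at D3, -0.46 at D28 and -0.83 at D28WO, or -0.79, -0.65 and -1.08 relative to the median (SE 0.10, 0.09 and 0.09, adjusted p 0.00201, 0.00346 and 2.08e-05). The ITGA5 call in U87 at D3 was lost with 2 groups fitted (limma adjusted p 0.00161 to 0.059). ITGA5 in U87 had a log2 fold change of -0.37 at D28WO against D28 (-0.41 relative to the median, SE 0.09, limma adjusted p 0.0119). The ITGA5 call in U87 for D28WO against D28 was lost without D28WO replicate 2 (limma adjusted p 0.00567 to 0.0546). ITGA5 in U251, chosen after its values were seen, ranged from 73.5 to 111 TPM over the line and passed at D3 alone, with a limma log2 fold change of -0.45 (SE 0.12, adjusted p 0.00682). ITGAV in U251 was at 139, 139.8 and 143 TPM (Untreated), 77.3, 87.3 and 77.0 (D3), 103, 120.5 and 116 (D14), 75.6, 69.3 and 62.8 (D28) and 98.2, 94.0 and 96.0 (D28WO). The Untreated libraries were within a narrow range, all treated ones lay below it, and D28WO lay between D28 and Untreated. For ITGAV in U251, limma gave log2 fold changes of -0.80, -0.31, -1.01 and -0.54 from D3 to D28WO, or -0.93, -0.41, -1.18 and -0.56 relative to the median (SE 0.08 each, adjusted p 1.97e-06, 0.0105, 1.71e-07 and 0.000111). ITGAV in U251 had a log2 fold change of 0.47 at D28WO against D28 (0.59 relative to the median, SE 0.08, limma adjusted p 0.000443). ITGAV in U87 stayed within 80.7 to 99.4 TPM and was called in no comparison. ITGA2B, the platelet chain that pairs with ITGB3, was at most 1.64 TPM in U87 and 7.58 TPM in U251 and was never called.

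ITGA9 and ITGA4, a pair of alpha chains known from migrating cells, fell together in U251. ITGA9 binds tenascin and osteopontin among others. ITGA9 in U251 was at 49.9, 48.5 and 46.4 TPM (Untreated), 10.7, 12.01 and 9.17 (D3), 38.3, 40.9 and 35.7 (D14), 7.82, 6.72 and 9.57 (D28) and 26.9, 19.1 and 20.3 (D28WO). D3 and D28 libraries were far below Untreated, D14 only a little below, and D28WO stood between D28 and Untreated with no overlap. For ITGA9 in U251, limma gave log2 fold changes of -2.09 at D3, -2.46 at D28 and -1.11 at D28WO, or -2.22, -2.62 and -1.12 relative to the median (SE 0.15 each, adjusted p 8.14e-08, 1.45e-08 and 5.86e-05). At D14 its adjusted p in limma was 0.133. ITGA9 in U251 had a log2 fold change of 1.35 at D28WO against D28 (1.47 relative to the median, SE 0.15, limma adjusted p 1.37e-05). ITGA4, which binds VCAM1 and fibronectin, fell at D3, D28 and D28WO but not at D14. ITGA4 in U251 was at 54.7, 58.0 and 53.3 TPM (Untreated), 32.5, 33.7 and 19.6 (D3), 56.0, 71.1 and 61.0 (D14), 26.2, 21.4 and 25.2 (D28) and 41.0, 34.5 and 36.6 (D28WO). The D14 libraries overlapped Untreated, the other treated libraries were all below both, and D28WO lay above D28. For ITGA4 in U251, limma gave log2 fold changes of -0.97 at D3, -1.16 at D28 and -0.56 at D28WO, or -1.10, -1.33 and -0.57 relative to the median (SE 0.17 each, adjusted p 0.000373, 7.95e-05 and 0.0223). ITGA4 in U251 had a log2 fold change of 0.60 at D28WO against D28 (0.72 relative to the median, SE 0.17, limma adjusted p 0.0148). The ITGA4 call in U251 at D28WO was lost without 1 library of Untreated or D28WO (limma adjusted p 0.00138 to 0.0772). The ITGA4 call in U251 for D28WO against D28 was lost without D28 replicate 2 or D28WO replicate 1 (limma adjusted p 0.000885 to 0.0636). In U87, ITGA4 ranged from 11.1 to 21.8 TPM and was called in no comparison, and ITGA9 was near 0.

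Of the leukocyte alpha chains, ITGAX, which pairs with ITGB2 on myeloid and dendritic cells, rose in both lines. ITGAX in U87 was at 16.4, 17.2 and 17.7 TPM (Untreated), 55.0 and 34.0 (D3), 20.9 and 21.3 (D14), 42.7, 32.8 and 24.9 (D28) and 38.3, 40.3 and 47.8 (D28WO). D3, D28 and D28WO libraries all lay above the Untreated ones, and the libraries labelled D14 lay just above them. For ITGAX in U87, limma gave log2 fold changes of 1.29 at D3, 0.90 at D28 and 1.25 at D28WO, or 1.09, 0.71 and 1.00 relative to the median (SE 0.22, 0.20 and 0.20, adjusted p 0.00274, 0.00787 and 0.000392). The call at D3 was lost with only the 2 compared groups fitted and that at D28 after quantile normalization, with limma adjusted p-values up to 0.0566 and 0.0763. ITGAX in U251 was at 0.299, 0.594 and 0.613 TPM (Untreated), 0.728, 2.09 and 0.122 (D3), 1.01, 0.936 and 1.57 (D14), 5.51, 4.23 and 2.67 (D28) and 0.227, 0.439 and 0.363 (D28WO). D28 alone stood above all other groups, while D3 and D28WO overlapped Untreated. For ITGAX in U251, limma gave a log2 fold change of 1.74 at D28, or 1.58 relative to the median (SE 0.33, adjusted p 0.000881). ITGAX in U251 had a log2 fold change of -1.90 at D28WO against D28 (-1.78 relative to the median, SE 0.33, limma adjusted p 0.000802). Its partner ITGB2 was called in no comparison of U251 and was not tested in U87. ITGAE, a chain of lymphocytes in epithelia, ranged from 42.0 to 62.4 TPM in U87 with no call and, chosen after its values were seen, was called lower in U251 at D3 (-0.30) and D28 (-0.25). The ITGAE call in U251 at D3 was lost without 1 library of Untreated or D3 and with 2 groups fitted (limma adjusted p 0.0023 to 0.0893). The ITGAE call in U251 at D28 was lost without 1 library of Untreated, D14, D28 or D28WO, with no filter and with 2 groups fitted (limma adjusted p 0.00424 to 0.191).

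The shared beta chain ITGB1 fell in both lines. ITGB1 in U87 was at 433, 453 and 521 TPM (Untreated), 373 and 362 (D3), 379.5 and 385 (D14), 415, 341 and 338 (D28) and 354, 362 and 346 (D28WO). Each library of D3, D28 and D28WO, and each of those labelled D14, was below each Untreated one. For ITGB1 in U87, limma gave log2 fold changes of -0.34 at D3, -0.36 at D28 and -0.40 at D28WO, or -0.54, -0.55 and -0.65 relative to the median (SE 0.09, 0.08 and 0.08, adjusted p 0.0298, 0.0105 and 0.00272). All 3 calls were lost after quantile normalization, and that at D28 also with 2 groups fitted (limma adjusted p up to 0.12 at D28 and 0.317 at D28WO). The ITGB1 call in U87 at D3 was lost without 1 library of Untreated or D3, with no filter, after quantile normalization, with 2 groups fitted and with replicate blocks (limma adjusted p 0.0102 to 0.273). ITGB1 in U251 was at 341, 335 and 359 TPM (Untreated), 209, 253 and 219 (D3), 244, 239.6 and 257 (D14), 202, 188 and 183 (D28) and 214, 202 and 215 (D28WO). Treated libraries were all well below Untreated, and D28 and D28WO overlapped. For ITGB1 in U251, limma gave log2 fold changes of -0.61, -0.48, -0.85 and -0.71 from D3 to D28WO, or -0.74, -0.58, -1.02 and -0.73 relative to the median (SE 0.07 each, adjusted p 6.77e-06, 0.000183, 2.34e-07 and 2.33e-06). ITGB5, which pairs with ITGAV to bind vitronectin, fell in both lines as well. ITGB5 in U87 was at 276, 303 and 303 TPM (Untreated), 217 and 219 (D3), 244 and 226 (D14), 213, 195 and 232 (D28) and 191, 199 and 191 (D28WO). Again every library of D3, D28 and D28WO, and those labelled D14, lay below every Untreated one. For ITGB5 in U87, limma gave log2 fold changes of -0.43, -0.32, -0.46 and -0.60 from D3 to D28WO, or -0.62, -0.47, -0.65 and -0.85 relative to the median (SE 0.08, 0.08, 0.07 and 0.07, adjusted p 0.00423, 0.0394, 0.000878 and 4.91e-05). Quantile normalization ended the D3 call, with limma adjusted p-values up to 0.0589. The ITGB5 call in U87 at D14 was lost without 1 library of Untreated, D3, D14 or D28WO, with no filter, after quantile normalization, with 2 groups fitted and with replicate blocks (limma adjusted p 0.0268 to 0.285).

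ITGB5 in U251 was at 301, 286 and 309 TPM (Untreated), 240.0, 240.4 and 257 (D3), 290.1, 305 and 288 (D14), 267, 250.2 and 261 (D28) and 204, 209 and 189.6 (D28WO). D14 overlapped Untreated, D3 and D28 were below both, and D28WO was the lowest group. For ITGB5 in U251, limma gave log2 fold changes of -0.28 at D3, -0.20 at D28 and -0.57 at D28WO, or -0.41, -0.36 and -0.59 relative to the median (SE 0.05 each, adjusted p 0.000592, 0.00646 and 1.7e-06). ITGB5 in U251 had a log2 fold change of -0.37 at D28WO against D28 (-0.25 relative to the median, SE 0.05, limma adjusted p 0.000123). The ITGB5 call in U251 at D28 was lost after quantile normalization (limma adjusted p 0.001 to 0.481). ITGB3, which pairs with ITGAV or with the platelet chain ITGA2B, showed the largest fall of any member in U251. ITGB3 in U251 was at 154, 153 and 145 TPM (Untreated), 25.6, 21.8 and 22.6 (D3), 72.4, 65.5 and 61.2 (D14), 25.4, 27.6 and 28.0 (D28) and 35.8, 32.4 and 34.0 (D28WO). D3 and D28 libraries were the lowest, D14 lay between them and Untreated, and D28WO was above D28 but far from Untreated. For ITGB3 in U251, limma gave log2 fold changes of -2.64, -1.18, -2.44 and -2.11 from D3 to D28WO, or -2.77, -1.27, -2.60 and -2.13 relative to the median (SE 0.08 each, adjusted p 1.96e-11, 3.27e-07, 4.21e-11 and 2.28e-10). ITGB3 in U251 had a log2 fold change of 0.32 at D28WO against D28 (0.44 relative to the median, SE 0.08, limma adjusted p 0.00867). In U87, ITGB3 was at 79.4, 81.9 and 86.7 TPM (Untreated), 93.4 and 89.1 (D3), 100.3 and 101 (D14), 101, 109 and 97.6 (D28) and 78.5, 83.7 and 90.5 (D28WO). D28 libraries lay above Untreated and above D28WO, and D28WO overlapped Untreated. For ITGB3 in U87, limma gave a log2 fold change of 0.31 at D28, or 0.12 relative to the median (SE 0.07, adjusted p 0.011). ITGB3 in U87 had a log2 fold change of -0.28 at D28WO against D28 (-0.32 relative to the median, SE 0.07, limma adjusted p 0.0187). Size factors ended the D28 call of ITGB3 in U87 (limma adjusted p up to 0.422). The ITGB3 call in U87 for D28WO against D28 was lost without 1 library of D28 or D28WO and with 2 groups fitted (limma adjusted p 0.0102 to 0.0876). Another coding gene on the same strand shares 2266 exon bases with ITGB3 in GENCODE. Its group means were at most 1.66 TPM in U87 and 0.661 TPM in U251, and its part in the ITGB3 result was not tested.

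ITGB8, which with ITGAV activates latent TGF-beta, fell in every treated group of U251, most at D28. ITGB8 in U251 was at 99.5, 93.7 and 93.7 TPM (Untreated), 36.8, 41.1 and 39.7 (D3), 58.5, 60.9 and 51.3 (D14), 28.8, 26.7 and 24.8 (D28) and 60.2, 61.8 and 65.8 (D28WO). D28 was the lowest group, D3 next, and D14 and D28WO overlapped each other below Untreated. For ITGB8 in U251, limma gave log2 fold changes of -1.27, -0.74, -1.80 and -0.60 from D3 to D28WO, or -1.40, -0.84, -1.97 and -0.62 relative to the median (SE 0.08 each, adjusted p 3.09e-08, 2.17e-05, 7.61e-10 and 6.19e-05). ITGB8 in U251 had a log2 fold change of 1.20 at D28WO against D28 (1.32 relative to the median, SE 0.08, limma adjusted p 2.22e-07). ITGB4, the long-tailed beta chain that anchors ITGA6 in hemidesmosomes, fell to about the same extent at D3 and D28. ITGB4 in U251 was at 230.2, 198 and 192 TPM (Untreated), 82.1, 123 and 105 (D3), 161, 159.8 and 145 (D14), 86.7, 126 and 87.9 (D28) and 202, 179.5 and 191 (D28WO). D3 and D28 libraries were all below Untreated and overlapped each other, and D28WO overlapped Untreated and lay above all of D28. For ITGB4 in U251, limma gave log2 fold changes of -1.01 at D3 and -1.05 at D28, or -1.14 and -1.22 relative to the median (SE 0.15 each, adjusted p 0.000102 and 6.83e-05). ITGB4 in U251 had a log2 fold change of 0.94 at D28WO against D28 (1.06 relative to the median, SE 0.15, limma adjusted p 0.000349). In U87 both were low and never called, with 2.08 to 3.79 TPM for ITGB8 and 3.85 to 8.85 TPM for ITGB4.

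ITGB7, the lymphocyte chain that pairs with ITGA4 or ITGAE, was called higher once in each line, from low levels. ITGB7 in U87 was at 0.923, 3.29 and 1.63 TPM (Untreated), 3.46 and 1.76 (D3), 1.34 and 4.51 (D14), 1.31, 2.84 and 3.64 (D28) and 4.71, 5.75 and 7.16 (D28WO). Only D28WO lay wholly above Untreated. For ITGB7 in U87, limma gave a log2 fold change of 1.29 at D28WO, or 1.03 relative to the median (SE 0.41, adjusted p 0.0253). The ITGB7 call in U87 at D28WO was lost without 1 library of Untreated or D28WO, with no filter and after quantile normalization (limma adjusted p 0.0135 to 0.222). ZNF740, on the opposite strand, shares 1881 exon bases with ITGB7. It was also higher at D28WO of U87, with a limma log2 fold change of 0.78 (adjusted p 0.00244). ZNF740 was called higher where ITGB7 was not, at D3 of U87 (0.61, limma adjusted p 0.041) and D28WO of U251 (0.35, limma adjusted p 0.0181). At D3 of U251, where ITGB7 was called, ZNF740 was not (0.05, limma adjusted p 0.712). The paper names the library kit but its text does not state the strandedness, and the part of ZNF740 was not tested. ITGB7 in U251 was at 1.04, 0 and 0 TPM (Untreated) and 3.33, 0.644 and 3.07 (D3). The second D3 library lay among the Untreated ones, so the groups overlapped. For ITGB7 in U251, limma gave a log2 fold change of 1.27 at D3, or 1.14 relative to the median (SE 0.47, adjusted p 0.0455). The ITGB7 call in U251 at D3 was lost without 1 library of any group, with no filter, after quantile normalization and with 2 groups fitted (limma adjusted p 0.0111 to 0.155). ITGB6, an epithelial partner of ITGAV, was at most 2.88 TPM in U87 with no call and in U251, chosen after its values were seen, was called higher at D28, at 0.722, 1.48 and 0.651 TPM against 0.102, 0.113 and 0.443 TPM. The ITGB6 call in U251 at D28 was lost without 1 library of any group, after quantile normalization, with size factors, with 2 groups fitted and with replicate blocks (limma adjusted p 0.0319 to 0.884).

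**Figure D4:**
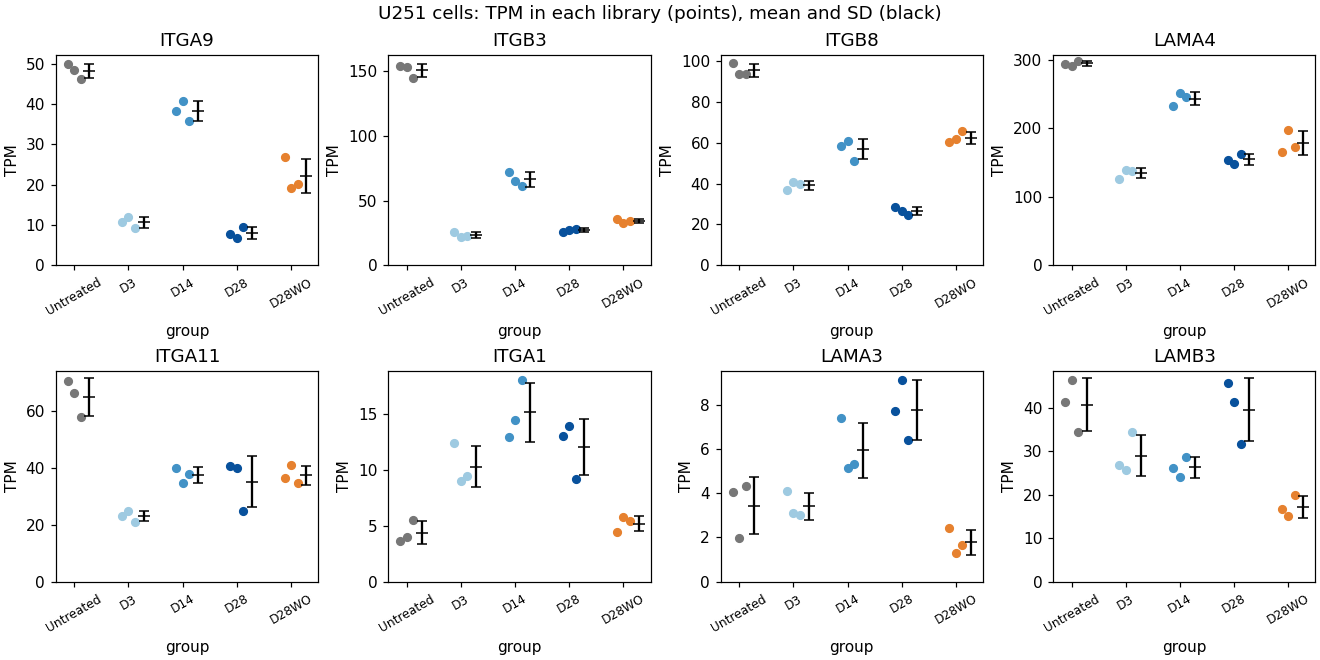
TPM in each library (points) of U251 by group for ITGA9, ITGB3, ITGB8, LAMA4, ITGA11, ITGA1, LAMA3 and LAMB3, with the mean and SD (black, n = 3). The first 5 are lowest at D3 or D28. ITGA1 is low in Untreated and D28WO, LAMA3 in Untreated, D3 and D28WO, and LAMB3 is lowest at D28WO.

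In the panels by library of U251, ITGA9 and ITGB8 at D28WO stand between D28 and Untreated, and ITGA1 is back among the Untreated libraries.

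The laminin alpha chains differed in their course. LAMA4, the alpha chain of vessel and mesenchymal basement membranes, fell in every treated group of U251. LAMA4 in U251 was at 295, 292 and 299 TPM (Untreated), 126, 139.7 and 138 (D3), 233, 251.2 and 246 (D14), 153, 148 and 163 (D28) and 165, 198 and 173 (D28WO). Treated libraries were all below Untreated, D14 nearest to it, and D28WO lay above D28 by a narrow gap. For LAMA4 in U251, limma gave log2 fold changes of -1.13, -0.28, -0.93 and -0.72 from D3 to D28WO, or -1.26, -0.37, -1.09 and -0.74 relative to the median (SE 0.07 each, adjusted p 1.65e-08, 0.0092, 1.04e-07 and 2.25e-06). LAMA4 in U251 had a log2 fold change of 0.21 at D28WO against D28 (0.33 relative to the median, SE 0.07, limma adjusted p 0.0325). The LAMA4 call in U251 at D14 was lost after quantile normalization (limma adjusted p 0.00354 to 0.0521). The LAMA4 call in U251 for D28WO against D28 was lost without 1 library of D28 or D28WO, with no filter, after quantile normalization and with 2 groups fitted (limma adjusted p 0.0139 to 0.148). In U87, LAMA4 ranged from 35.2 to 55.1 TPM with no call. LAMA3, an alpha chain of epithelial laminin, rose in U251 at D28. LAMA3 in U251 was at 4.04, 1.96 and 4.33 TPM (Untreated), 4.12, 3.11 and 3.03 (D3), 7.40, 5.16 and 5.32 (D14), 7.72, 9.14 and 6.43 (D28) and 2.42, 1.32 and 1.64 (D28WO). D28 libraries were above all Untreated ones and above D28WO, which overlapped Untreated. For LAMA3 in U251, limma gave a log2 fold change of 1.02 at D28, or 0.85 relative to the median (SE 0.26, adjusted p 0.00591). LAMA3 in U251 had a log2 fold change of -1.66 at D28WO against D28 (-1.54 relative to the median, SE 0.26, limma adjusted p 0.000292). The LAMA3 call in U251 at D28 was lost after quantile normalization (limma adjusted p 0.00463 to 0.107). In U87, LAMA3 ranged from 2.33 to 6.35 TPM with no call.

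LAMA1, the alpha chain of embryonic basement membranes, rose in U87 at D28WO alone, and had the largest rise of any member in that line. LAMA1 in U87 was at 12.7, 11.6 and 7.27 TPM (Untreated), 15.1 and 12.5 (D3), 9.70 and 10.1 (D14), 13.4, 15.2 and 14.2 (D28) and 38.03, 44.9 and 35.8 (D28WO). The 3 D28WO libraries stood apart from all others, and the remaining groups lay close together, with D28 just above Untreated. For LAMA1 in U87, limma gave a log2 fold change of 1.84 at D28WO, or 1.59 relative to the median (SE 0.18, adjusted p 1.5e-05). LAMA1 in U87 had a log2 fold change of 1.41 at D28WO against D28 (1.37 relative to the median, SE 0.18, limma adjusted p 0.000496). LAMA1 in U251 was at most 2.42 TPM and was not called. LAMA5, the most widespread laminin alpha chain of adult tissue, chosen after its values were seen, fell in U87 at D28 and was back in the Untreated range at D28WO. LAMA5 in U87 was at 121, 145 and 92.3 TPM (Untreated), 85.1 and 119 (D3), 86.4 and 88.7 (D14), 84.5, 86.6 and 57.2 (D28) and 127, 144 and 125 (D28WO). D28 libraries were all below Untreated and below D28WO, and D3 and D28WO overlapped Untreated. For LAMA5 in U87, limma gave a log2 fold change of -0.64 at D28, or -0.83 relative to the median (SE 0.19, adjusted p 0.0286). LAMA5 in U87 had a log2 fold change of 0.81 at D28WO against D28 (0.77 relative to the median, SE 0.19, limma adjusted p 0.0117). The LAMA5 call in U87 at D28 was lost without 1 library of Untreated or D28, with no filter and with 2 groups fitted (limma adjusted p 0.00458 to 0.126). In U251, LAMA5 ranged from 81.0 to 151 TPM and was not called.

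LAMA2, the alpha chain of muscle and nerve, chosen after its values were seen, had a limma log2 fold change of 0.59 at D28WO of U87 (SE 0.20, adjusted p 0.0312), from 8.87, 7.32 and 7.22 TPM to 14.3, 11.1 and 11.3 TPM, and of -0.66 at D3 of U251 (SE 0.24, adjusted p 0.0369), with overlapping groups. Both calls were lost without at least 1 library of either group, that of U87 also under both scalings and that of U251 with no filter or only 2 groups (limma adjusted p up to 0.783 and 0.193).

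Among the laminin beta chains, LAMB2 is the member of U87 whose promoter is shown. It was higher at D3, D28 and D28WO and in the libraries labelled D14. It lies at chr3:49133001-49133300 on the minus strand, again from RefSeq on GRCh38.p14, and capitals mark TTCNNNGAA, with its first base 49 bases before the gene start.
LAMB2: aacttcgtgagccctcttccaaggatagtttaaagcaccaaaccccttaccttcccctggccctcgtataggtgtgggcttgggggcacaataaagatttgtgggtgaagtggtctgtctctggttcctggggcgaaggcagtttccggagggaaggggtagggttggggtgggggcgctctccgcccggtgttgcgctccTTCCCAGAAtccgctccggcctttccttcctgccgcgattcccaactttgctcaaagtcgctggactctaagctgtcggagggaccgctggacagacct

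LAMB2, the beta chain known from neuromuscular junction and kidney glomerulus, was the member called higher in all 4 comparisons of U87 against Untreated. LAMB2 in U87 was at 130.3, 170.2 and 126 TPM (Untreated), 245 and 236 (D3), 244 and 201 (D14), 236, 251.004 and 220.3 (D28) and 245, 247 and 212 (D28WO). All treated libraries lay above all Untreated ones, those labelled D14 included, and the treated groups overlapped. For LAMB2 in U87, limma gave log2 fold changes of 0.77, 0.65, 0.74 and 0.73 from D3 to D28WO, or 0.57, 0.50, 0.55 and 0.48 relative to the median (SE 0.13, 0.13, 0.12 and 0.12, adjusted p 0.00256, 0.0205, 0.0011 and 0.000409). The LAMB2 call in U87 at D14 was lost without 1 library of Untreated or D14, with size factors and with 2 groups fitted (limma adjusted p 0.00522 to 0.181). The D3 call was lost with 2 groups fitted (limma adjusted p up to 0.0698). In U251, LAMB2 was at 342, 337 and 384 TPM (Untreated), 318, 374 and 308 (D3), 307, 320.0 and 294 (D14), 247, 261 and 331 (D28) and 321, 368 and 358 (D28WO). D28 libraries were below all Untreated ones, the other groups at or near them, and 1 D28 library overlapped D28WO. For LAMB2 in U251, limma gave a log2 fold change of -0.35 at D28, or -0.51 relative to the median (SE 0.10, adjusted p 0.0152). LAMB2 in U251 had a log2 fold change of 0.33 at D28WO against D28 (0.45 relative to the median, SE 0.10, limma adjusted p 0.0292). The LAMB2 call in U251 at D28 was lost without 1 library of Untreated or D28, after quantile normalization and with 2 groups fitted (limma adjusted p 0.00115 to 0.185). The LAMB2 call in U251 for D28WO against D28 was lost without 1 library of D28 or D28WO, with no filter, after quantile normalization and with 2 groups fitted (limma adjusted p 0.00295 to 0.122).

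LAMB1, the common beta chain, fell in both lines by little. LAMB1 in U87 was at 195, 209 and 214 TPM (Untreated), 172 and 159.7 (D3), 225 and 186 (D14), 183, 177 and 183 (D28) and 202, 190.2 and 182 (D28WO). D3 and D28 libraries were below the Untreated ones, and those labelled D14 and D28WO overlapped them. For LAMB1 in U87, limma gave a log2 fold change of -0.31 at D3, or -0.51 relative to the median (SE 0.08, adjusted p 0.0275). The LAMB1 call in U87 at D3 was lost without 1 library of Untreated or D3, after quantile normalization and with 2 groups fitted (limma adjusted p 0.0158 to 0.165). LAMB1 in U251 was at 212, 207 and 217 TPM (Untreated), 173, 153 and 162 (D3), 194, 209 and 192 (D14), 178, 186 and 193 (D28) and 174, 175 and 167 (D28WO). D3, D28 and D28WO were all below Untreated, and D14 overlapped it. For LAMB1 in U251, limma gave log2 fold changes of -0.38 at D3, -0.19 at D28 and -0.30 at D28WO, or -0.51, -0.35 and -0.31 relative to the median (SE 0.05 each, adjusted p 6.96e-05, 0.012 and 0.000827). The LAMB1 call in U251 at D28 was lost without D28 replicate 1 and after quantile normalization (limma adjusted p 0.000996 to 0.162). LAMB3, the beta chain of epithelial laminin, fell in U251, most of all at D28WO. LAMB3 in U251 was at 41.4, 46.5 and 34.4 TPM (Untreated), 26.9, 25.7 and 34.5 (D3), 26.2, 24.0 and 28.8 (D14), 45.7, 41.4 and 31.6 (D28) and 16.7, 15.1 and 20.0 (D28WO). D28WO stood below every other library, D14 below Untreated, D3 overlapped Untreated by 1 library, and 2 of 3 D28 libraries lay in its range. For LAMB3 in U251, limma gave log2 fold changes of -0.48 at D3, -0.61 at D14 and -1.19 at D28WO, or -0.61, -0.70 and -1.21 relative to the median (SE 0.16 each, adjusted p 0.0288, 0.0158 and 7.31e-05). LAMB3 in U251 had a log2 fold change of -1.15 at D28WO against D28 (-1.03 relative to the median, SE 0.16, limma adjusted p 0.000134). The LAMB3 call in U251 at D3 was lost without 1 library of Untreated or D3, with no filter and with 2 groups fitted (limma adjusted p 0.00767 to 0.117). The LAMB3 call in U251 at D14 was lost without Untreated replicate 2 or D14 replicate 2 (limma adjusted p 0.00518 to 0.0717).

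LAMB3 in U87, chosen after its values were seen, fell at D28 and was in or above the Untreated range at D28WO. Its levels were 86.3, 94.6 and 83.9 TPM (Untreated), 90.2 and 85.1 (D3), 69.4 and 77.2 (D14), 60.8, 65.7 and 77.3 (D28) and 91.0, 107 and 91.1 (D28WO). D28 libraries, and those labelled D14, lay below the Untreated ones and below D28WO, and D3 and D28WO overlapped Untreated. For LAMB3 in U87, limma gave a log2 fold change of -0.38 at D28, or -0.57 relative to the median (SE 0.10, adjusted p 0.0193). LAMB3 in U87 had a log2 fold change of 0.50 at D28WO against D28 (0.46 relative to the median, SE 0.10, limma adjusted p 0.00553). The LAMB3 call in U87 at D28 was lost without 1 library of Untreated or D28 and with 2 groups fitted (limma adjusted p 0.00504 to 0.0747). LAMB4 rose in U251 from a level near 0. LAMB4 in U251 was at 0.252, 0.197 and 1.02 TPM (Untreated), 1.89, 3.33 and 2.65 (D3), 2.47, 1.07 and 2.67 (D14), 2.47, 2.18 and 4.25 (D28) and 0, 0.530 and 0.944 (D28WO). All libraries of D3, D14 and D28 were above the Untreated ones, and D28WO overlapped Untreated. For LAMB4 in U251, limma gave log2 fold changes of 1.30 at D3, 1.04 at D14 and 1.42 at D28, or 1.17, 0.94 and 1.25 relative to the median (SE 0.34 each, adjusted p 0.00692, 0.043 and 0.00417). LAMB4 in U251 had a log2 fold change of -1.43 at D28WO against D28 (-1.31 relative to the median, SE 0.34, limma adjusted p 0.00605). The LAMB4 call in U251 at D14 was lost without 1 library of any group, with a pseudocount of 0.1, with no filter, after quantile normalization, with size factors and with 2 groups fitted (limma adjusted p 0.0247 to 0.222). Quantile normalization ended the calls at D3, at D28 and for D28WO against D28 too (limma adjusted p up to 0.0687, 0.085 and 0.0514).

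LAMC1, the gamma chain of most laminins, fell in every treated group of U251, and was chosen there after its values were seen. LAMC1 in U251 was at 192, 207 and 215 TPM (Untreated), 118, 127 and 106 (D3), 155, 163 and 169 (D14), 109, 111 and 111 (D28) and 121, 144 and 152 (D28WO). Each treated library was below each Untreated one, and D28WO lay above D28. For LAMC1 in U251, limma gave log2 fold changes of -0.80, -0.33, -0.88 and -0.56 from D3 to D28WO, or -0.93, -0.43, -1.04 and -0.58 relative to the median (SE 0.08 each, adjusted p 3.97e-06, 0.0112, 1.54e-06 and 0.00017). LAMC1 in U251 had a log2 fold change of 0.32 at D28WO against D28 (0.44 relative to the median, SE 0.08, limma adjusted p 0.0104). The LAMC1 call in U251 for D28WO against D28 was lost without D28WO replicate 3 (limma adjusted p 0.00156 to 0.0534). LAMC1 in U87 ranged from 170.0 to 220.0 TPM, and no comparison passed. LAMC3 of U251 (0.0363 to 4.90 TPM) was called in no comparison.

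**Figure D5:**
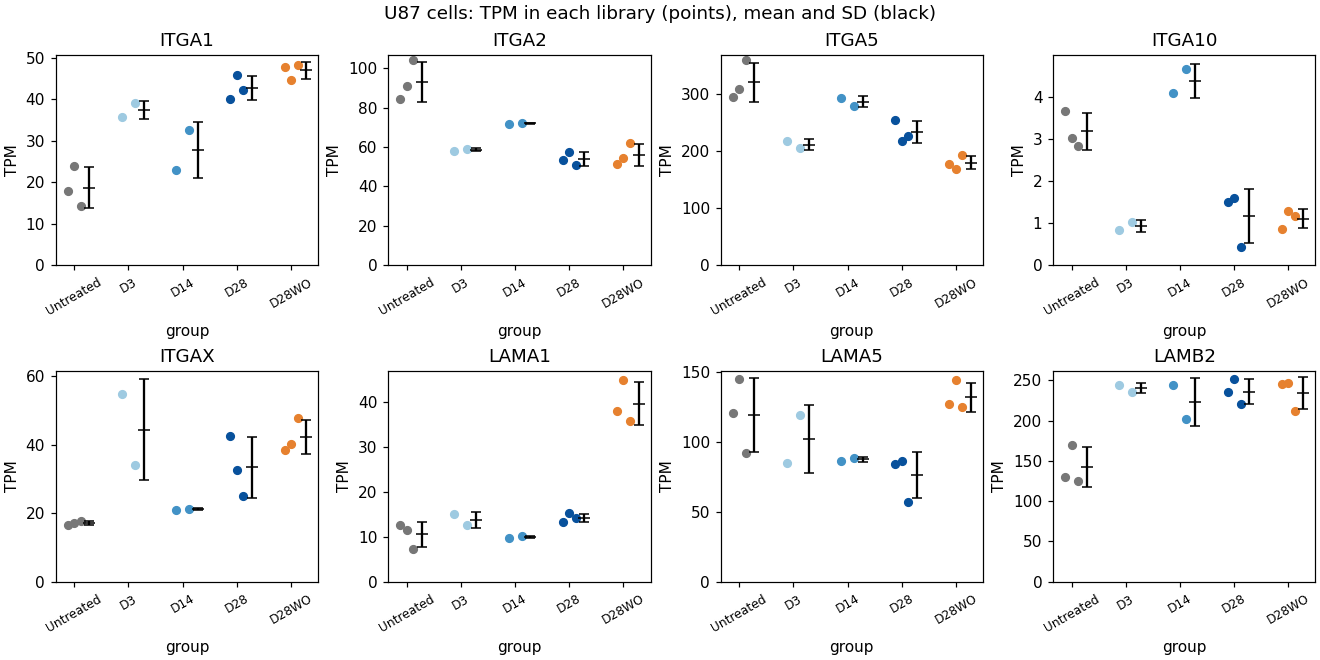
TPM in each library (points) of U87 by group for ITGA1, ITGA2, ITGA5, ITGA10, ITGAX, LAMA1, LAMA5 and LAMB2, with the mean and SD (black, n = 3, or 2 for D3 and D14). LAMA1 is high at D28WO alone, at 35.8 to 44.9 TPM, and the libraries labelled D14 lie nearer to Untreated than the other treated groups for ITGA5 and ITGAX.

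In the panels by library of U87, the libraries labelled D14 stand with the other treated groups for LAMB2.

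Sequence and position were compared over all members. RefSeq promoters were found for 26 of the 38 members, 33 promoters in all, and 12 members had none in the table. TTCNNNGAA, searched on both strands (it reads as itself on the other), was in 2 of the 33, those of ITGAE and LAMB2, and GAAANNGAA, searched on both strands, in 3, those of ITGA10, ITGB5 and LAMB3. Over all 35116 promoters of the same length, 7.66% hold the first and 8.11% the second, so the members hold them about as often as other genes do. A match is a description of letters and shows no binding. Like ITGA1 and ITGA2, LAMB1 and LAMB4 on chromosome 7 (20334 bases apart) had no coding gene between them, nor had ITGAM, ITGAX and ITGAD on chromosome 16 (22241 and 10335 bases), on the same strand within each group. In U251, LAMB1 fell and LAMB4 rose at D3 and D28, so these neighbors did not share a direction. ITGAX rose in both lines, and its neighbors ITGAM and ITGAD were at or under 2.37 TPM in every library. ITGAM was tested in U251 alone and ITGAD in U87 alone, and neither was called there.

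The genes that work with these chains were read from 4 lists, each beside all genes tested, whose shares and medians are those given above. Counts are given as higher and lower pairs at D3, D14, D28 and D28WO, and then for D28WO against D28, with medians in the same order. Adhesion machinery, the proteins that link integrins to actin and to signaling inside the cell, held 35 genes, 33 of them tested in each line. In U87 its counts were 2 and 6, 0 and 2, 6 and 8, 4 and 16 and then 0 and 10, with medians of -0.11, 0.03, -0.05, -0.25 and -0.24. The U251 counts were 6 and 8, 2 and 3, 8 and 11, 3 and 8 and then 7 and 7, with medians of -0.03, -0.03, -0.11, -0.09 and 0.05. The lower genes outnumbered the higher ones in each comparison of U87 with Untreated. From D3 to D28WO, 18.2%, 6.06%, 24.2% and 48.5% of those tested were lower, against 4.28%, 1.02%, 6.55% and 13.4% of all genes. Higher were 6.06%, 0%, 18.2% and 12.1%, against 12.4%, 4.14%, 17.2% and 28.6%. How far this balance depends on scaling was not tested for the list. In U87 the largest changes were those of the kinase PTK2B (1.28 at D28, SE 0.24, limma adjusted p 0.00358) and the actin linker TNS1 (0.99 at D28, SE 0.21, limma adjusted p 0.00568). In U251 they were TNS1 (1.25 at D28, SE 0.32, limma adjusted p 0.00671) and PTK2B (1.10 at D3, SE 0.27, limma adjusted p 0.00525).

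Basement membrane partners, the proteins that laminins assemble with, held 19 genes, of which 13 were tested in U87 and 14 in U251. In U87 there were 4 and 1, 1 and 0, 3 and 2, 4 and 1 and then 4 and 0, with medians of 0.12, 0.15, -0.04, 0.12 and 0.17. In U251 there were 0 and 8, 1 and 3, 1 and 7, 4 and 6 and then 5 and 1, with medians of -0.62, -0.07, -0.63, -0.44 and 0.14. Of the 12 laminin genes of U251, 5 fell and 2 rose at D3, and 4 fell and 3 rose at D28. LAMA4, LAMB1 and LAMC1 fell both times, and LAMB4 rose both times. At D3 and D28 of U251, 8 and 7 of the 14 partners fell (57.1% and 50%, against 16.0% and 14.7% of all genes). Medians of the partners were further below 0 than those of the members. NID1, the nidogen that joins laminin to collagen, showed this most, with a log2 fold change of -1.60 at D3, SE 0.06, limma adjusted p 1.63e-10. Perlecan, HSPG2, was higher at D28WO than at D28 of U251 (1.80, SE 0.24, limma adjusted p 8.36e-05). In U87 the largest changes were rises, those of the netrin NTN4 (2.16 at D28WO, SE 0.27, limma adjusted p 7.89e-05) and perlecan HSPG2 (1.45 at D28WO, SE 0.21, limma adjusted p 0.000222), in the group where LAMA1 also rose. As a list, 30.8% of the partners tested were higher there and 7.69% lower, against 28.6% and 13.4% of all genes, so the share that rose was near that of all genes.

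Other integrin ligands held 25 genes, 22 of them tested in each line. U87 had 7 and 8, 2 and 1, 6 and 7, 4 and 7 and then 3 and 3, with medians of 0.05, 0.02, -0.01, 0.02 and -0.06. For U251 the counts were 7 and 8, 4 and 6, 9 and 6, 6 and 7 and then 0 and 8, with medians of -0.12, 0.04, 0.40, 0.02 and -0.15. Rises and falls were close in number in most comparisons. At D28WO of U87 falls led (4 and 7), where 28.6% of all genes were higher and 13.4% lower. At D28 of U251 rises led (9 and 6). The widest gap was for D28WO against D28 of U251, where 0 rose in limma. At an unadjusted p under 0.05, 10 of the 22 were counted there, in either direction. The largest changes in U87 were rises of leukocyte ligands, VCAM1 (2.67 at D28WO, SE 0.30, limma adjusted p 3.42e-05), which ITGA4 binds, and ICAM1 (2.02 at D28WO, SE 0.12, limma adjusted p 2.79e-07), which ITGAL and ITGAX bind, whereas another, ICAM3 (-0.49 at D28WO, SE 0.11, limma adjusted p 0.00469), fell. In U251 the leading genes were ICAM1 (4.59 at D28, SE 0.12, limma adjusted p 3.05e-12) and the elastic fiber protein FBLN5 (3.05 at D28, SE 0.31, limma adjusted p 3.15e-06). Other laminin receptors, which are not integrins, held 6 genes, all tested. Counts in U87 were 0 and 3, 0 and 0, 0 and 4, 0 and 5 and then 0 and 3, with medians of -0.36, -0.22, -0.31, -0.58 and -0.27. Counts in U251 were 0 and 6, 2 and 4, 1 and 5, 1 and 5 and then 2 and 2, with medians of -0.56, -0.29, -0.45, -0.57 and -0.00. No receptor of the list rose in U87 by limma, and at an unadjusted p under 0.05 there were 5, 1, 4, 6 and 4 in the 5 comparisons, in either direction. The largest changes in U87 were falls of the proteoglycan SDC1 (-1.28 at D28WO, SE 0.09, limma adjusted p 8.66e-07) and of dystroglycan, DAG1 (-0.96 at D28WO, SE 0.09, limma adjusted p 9.01e-06). In U251 they were SDC1 (-0.91 for D28WO against D28, SE 0.06, limma adjusted p 3.42e-07) and the Lutheran antigen BCAM (0.87 for D28WO against D28, SE 0.08, limma adjusted p 3.59e-06).

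Cell type markers were read because several members are known from leukocytes, platelets, vessels or epithelia. Of 7 glioma and neural markers, 6 were tested in each line, and VIM, an intermediate filament protein, was the most abundant in U87 and in treated U251, GFAP in Untreated U251. Their summed level in U251 was 3773, 3775 and 3703 TPM (Untreated), 1489, 1825 and 1645 (D3), 2971, 2786 and 2578 (D14), 1617, 1728 and 1835 (D28) and 2108, 2179 and 2166 (D28WO). Every treated library was below every Untreated one, with D14 the nearest. Called higher and lower were 0 and 6, 0 and 5, 0 and 6, 0 and 5 and 2 and 1 in U251, so this list fell at the same time points as the members, and its part in the result was not tested. In U87 the sum was 2171, 1945 and 2028 TPM (Untreated), 1807 and 1762 (D3), 1844 and 1935 (D14), 1949, 1922 and 1807 (D28) and 1517, 1640.4 and 1666 (D28WO). D28WO libraries were the lowest there. U87 counts were 0 and 1, 0 and 0, 2 and 0, 2 and 3 and 1 and 3. GFAP, the astrocyte filament, was at 222 to 1309 TPM in U251 and 2.33 to 19.1 TPM in U87, SOX2, a neural stem cell factor, at 0 to 0.411 TPM in U87 with 5 libraries listed at 0, and OLIG2, a glial lineage factor, at no more than 1.33 TPM in U251 with 5 libraries listed at 0. In U87, OLIG2 was at 9.49, 7.06 and 4.94 TPM in Untreated cells and 26.1, 32.0 and 22.0 TPM at D28WO, where it was called higher, against the fall of the sum, most of which is VIM and CD44.

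Leukocyte markers were 9 genes, 2 tested in U87 and 4 in U251, with CD68, also found in other cells, the most abundant. Their sum ranged from 233 to 487 TPM in U87 and from 88.3 to 177 TPM in U251. D28WO of U87 had the lowest sums, and ITGAX did not follow them. The defining marker PTPRC (CD45) was at most 1.47 TPM in U87 and 1.36 TPM in U251, and AIF1 was at 0 in every U87 library. The myeloid marker CSF1R was at 58.9, 47.3 and 59.4 TPM in the Untreated libraries of U87 and at 11.2, 16.7 and 22.9 TPM at D28WO, where it was called lower, and at most 4.08 TPM in U251. Called higher and lower were 0 and 0, 0 and 0, 0 and 0, 0 and 2 and 0 and 2 in U87 and 1 and 1, 1 and 0, 1 and 0, 1 and 0 and 0 and 1 in U251. Platelet markers, which bear on ITGA2B and ITGB3, were 4 genes with 1 tested in each line and GP1BA the most abundant. Their sum ranged from 0.959 to 2.74 TPM in U87 and from 1.96 to 4.88 TPM in U251, with PF4 and GP9 at 0 in all U87 libraries and PPBP in all U251 libraries. The gene tested was called in 0 comparisons of either line in limma, and in 0 at an unadjusted p under 0.05.

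Endothelial markers, which bear on LAMA4, were 4 genes, all tested, with KDR the most abundant in U87 and in treated U251, CDH5 in Untreated U251. The sum in U251 was 49.9, 39.3 and 35.8 TPM (Untreated), 14.3, 14.0 and 13.3 (D3), 43.0, 30.1 and 32.5 (D14), 22.4, 21.9 and 20.7 (D28) and 16.4, 13.1 and 11.2 (D28WO), and in U87 4.52 to 8.49 TPM. Called higher and lower were 0 and 0, 0 and 0, 0 and 0, 0 and 1 and 0 and 0 in U87 and 0 and 1, 1 and 1, 1 and 1, 0 and 2 and 0 and 1 in U251. CDH5 of U251, the cadherin of endothelium, had a mean of 27.6 TPM in Untreated cells and 0.565 TPM at D3, and was called lower in every treated group, whereas KDR was called higher at D14 and D28 and lower at D28WO. Epithelial markers, which bear on LAMA3, LAMB3 and ITGB4, were 5 genes, 4 tested in U87 and 3 in U251, with KRT8 the most abundant in U87, and KRT8 or KRT18 in U251. Their sum in U251 was 112, 105 and 110.3 TPM (Untreated), 56.8, 50.2 and 63.2 (D3), 99.8, 85.2 and 98.2 (D14), 65.0, 84.0 and 61.0 (D28) and 64.8, 65.0 and 73.8 (D28WO), and in U87 34.9 to 61.2 TPM. Every treated library of U251 was below every Untreated one, ITGB4 being lower at D3 and D28. Called higher and lower were 0 and 0, 0 and 0, 0 and 1, 0 and 1 and 0 and 1 in U87 and 0 and 2, 0 and 1, 0 and 1, 0 and 1 and 0 and 0 in U251. The part of any of these lists in the members' results was not tested.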

How the data were processed

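The values are TPM as deposited by the authors, who state FastQC, Trim Galore, STAR, featureCounts and edgeR on GRCh38 but not how TPM was computed. A minimum depth is stated in the paper, but the depth of each library is unknown. Of the U87 table, 2 columns under the same name were not used. Tests used limma 3.58.1 in R 4.3.3, checked on simulated data, and figures Python 3.11.15 with matplotlib 3.10.9. Positions are from GENCODE v44 and promoters from RefSeq on GRCh38.p14. Members were named in full if they passed both rules in any comparison, or were among the 3 highest Untreated means of the alpha, beta or laminin genes; others are marked as chosen after their values were seen. Of up to 3 called genes with the largest changes in each further list and line, the first 2 are named. Counts hold every member, but 1 member and 1 gene of the interferon list are not reported here. Members and lists were chosen with earlier results of these data known. Alternatives were a pseudocount of 0.1, no filter, a filter at 1 TPM, quantile normalization, size factors by median ratio, a fit of the compared groups alone, the replicate number as a block, a stricter rule, each library left out, and, added after seeing the data, U87 without its D14 libraries. TPM are given to 3 digits, and a few that would equal a count in the scripts, such as 13, to a digit or more beyond.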

Additional observations from a re-analysis of the deposited data

Results flagged for a closer look

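These members had every treated library of the groups compared on opposite sides of Untreated in the 2 lines, and the difference between lines was not tested. The limma log2 fold changes of ITGA10 at D3 were -1.11 in U87 and 0.76 in U251. Those of ITGA2 were -0.65 and 0.57 at D3, -0.77 and 1.06 at D28 and -0.72 and 0.42 at D28WO. ITGB3 at D28 had 0.31 in U87 and -2.44 in U251, and LAMB2 at D28 had 0.74 and -0.35. The ITGB3 call in U87 was lost with size factors (limma adjusted p up to 0.422). The LAMB2 call in U251 was lost under 5 of 22 alternatives. For ITGA10 at D3 the call was lost under 7 of 21 in U87 and 17 of 22 in U251. The other calls named here were lost under none. Each change was taken within the table of its own line, against Untreated cells of that line. The tables were normalized separately, and the cause of a difference between the lines was not tested.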

How the results depend on the processing

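In the order D3, D14, D28, D28WO and D28WO against D28, the limma counts of called members were 10, 3, 12, 12 and 5 in U87 and 24, 13, 23, 15 and 17 in U251. With a log2 fold change over 1 in size required as well they were 2, 0, 1, 4 and 1 in U87 (for the 0, 10 members had an unadjusted p under 0.05) and 9, 3, 13, 4 and 8 in U251, which is fewer by construction. With only the compared groups fitted, U87 had 2 at D3, 0 at D14 and 7 at D28, from fewer samples. The U87 count at D14 was 1 with no filter, 1 after quantile normalization, 1 with size factors and 1 with replicate blocks, and the cause was not tested. With 1 library left out, U87 counts ran from 6 to 10, 0 to 5, 10 to 12, 10 to 13 and 3 to 5, and U251 counts from 18 to 23, 10 to 15, 19 to 23, 13 to 15 and 14 to 18. Where this leaves 1 library in a group of U87, that library is assumed to vary as the other groups do.

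Of the 42 calls in U87 and 92 in U251, quantile normalization lost 13 and 18, 2 groups alone 17 and 14, no filter 6 and 13, size factors 4 and 4, blocks 4 and 1, the other pseudocount 0 and 1, and none was reversed. Same-numbered libraries were no more alike than others (residual correlations -0.058 to 0.047 in U87 and -0.0375 to 0.048 in U251). With so few libraries in a group, this cannot show whether replicate numbers pair. The depth of each library is unknown beyond a minimum stated in the paper, so a member at or near 0 may be absent or missed.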
